A study of Drosophila melanogaster with 2 samples.

Results

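The genes described here are 10 genes of ribosome production, taken by their symbols from the 14210 genes measured in sorted type II neuroblast lineages of the larval brain of Drosophila melanogaster. They are dm, which encodes the transcription factor Myc, mbm, which encodes a nucleolar protein of neuroblasts, the RNA polymerase I subunit genes RpI1 and RpI135, the rRNA processing genes U3-55K, CG7728, Nop60B, Fib and nop5, and the nucleolar helicase gene pit. All 10 were found in both libraries, and all 10 passed the filter on low values. Type II neuroblasts are neural stem cells whose neurons arise by way of intermediate neural progenitors (INPs). 1 library was made for each genotype, from brains of larvae late in the third instar, out of cells sorted for strong membrane GFP. Eggs were collected over 24 h and the progeny spent 5 days at 25 °C until dissection, for both genotypes. By the labels the wild type sort holds neuroblasts, INPs and ganglion mother cells but no neurons, and the osa RNAi sort holds neuroblasts, INPs and cells that reverted to a neuroblast-like state, so the labelled cell types differ. In the wild type library, of the w1118 strain, worniu-Gal4 with ase-Gal80 drove UAS-CD8::GFP, and in the osa RNAi library the same driver pair drove UAS-CD8::GFP together with RNAi line 7810 (Vienna Drosophila Resource Center), directed against osa, a subunit gene of the SWI/SNF chromatin remodelling complex. RNA interference was thus limited to cells in which this driver is active, and the number of brains behind each sort is not stated.

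Ribosome production starts in the nucleolus, where RNA polymerase I transcribes the rRNA precursor. The precursor is modified by small nucleolar ribonucleoproteins (snoRNPs), cut with the help of the U3 snoRNP, and assembled with ribosomal proteins into the small (40S) and large (60S) subunits. Myc raises transcription of many genes of this pathway in flies, and Drosophila neuroblasts are known for large nucleoli that shrink in their differentiating daughters.

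The wild type library is called the control below. FPKM is the fragments on a gene divided by its transcript length and by the library's mapped fragments. The targeted gene osa stood at 31.3 FPKM in wild type and at 15.6 FPKM under osa RNAi, 2.01-fold lower (95% interval 1.91 to 2.11). Its difference of log2(FPKM + 1) was −0.96, which did not pass the 2-fold rule given below. The deposited intervals implied 10114559 reads on genes in wild type and 15707014 under osa RNAi. With 1 library per genotype there is no replicate check and no test between genotypes, and all intervals cover counting error only. The sorts also differed in marker genes. All 7 neuroblast markers were above 0 in both libraries, with a summed level of 446 FPKM in the control and 621 under osa RNAi. Within that list dpn (61.97 and 67.3 FPKM) and wor (85.2 and 89.3 FPKM) were nearly level, pnt was at 13.8 and 53.3 FPKM, mira at 192 and 302 FPKM and insc at 33.8 and 57.95 FPKM, and ase lay the other way at 39.4 and 27.7 FPKM. The 9 markers of INPs and ganglion mother cells summed to 379 and 232 FPKM, with opa listed at 0 under osa RNAi. Of that list 6 were called 2-fold lower by the rule given below, but grh was called higher at 33.6 and 92.2 FPKM, and erm was nearly level at 44.7 and 41.8 FPKM. Of 9 neuronal markers 8 were found, and they summed to 91.7 and 50.3 FPKM with none at 0. By the same rule 3 of them were called lower (Snap25, nerfin-1 and Rdl), while Syt1 (0.578 and 1.63 FPKM) and futsch (0.826 and 1.06 FPKM) lay the other way at low levels. The 6 glial markers summed to 291 and 249.8 FPKM, with repo listed at 0 in wild type and moody at 0 under osa RNAi. Of these, gcm (3.45 and 1.05 FPKM) was called lower and loco (5.53 and 12.4 FPKM) higher. The 9 stress genes summed to 27151 and 24036 FPKM, and 3 of them (Hsp67Bc, puc and Gadd45) were called lower and none higher. The 3 haemocyte markers found stayed below 5 FPKM in sum in both libraries, as did the 3 fat body markers. The part of these differences in the results below was not tested, and in such bulk samples a change in the mix of cells and a change in RNA per cell cannot be told apart.

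Transcripts of all 10 genes were at a higher FPKM in osa RNAi than in wild type, with deposited intervals that did not overlap for any of them. Over the 7144 genes tested 53.1% had a difference above 0, and 35.9% were higher in osa RNAi with intervals apart. For Fib the reads behind the FPKM did not show this difference (given with the snoRNP genes). The differences of log2(FPKM + 1), osa RNAi minus wild type, ran from 0.42 for Fib to 1.21 for RpI1, with a median of 0.83 beside 0.04 over the 7144 genes tested. A gene was called 2-fold higher when this difference was at least 1, its mean FPKM at least 1, its estimate marked OK in both libraries and its intervals apart. By this rule dm, RpI1, U3-55K and CG7728 were called, 4 of 10, where 7.78% of all genes tested were called higher. None of the 10 was called lower, where 6.79% of all genes were. At a threshold of 1.5-fold mbm, RpI135 and pit joined them, 7 of 10 beside 17.1% of all genes, and the snoRNP genes Nop60B, Fib and nop5 stayed below it.

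**Figure D1:**
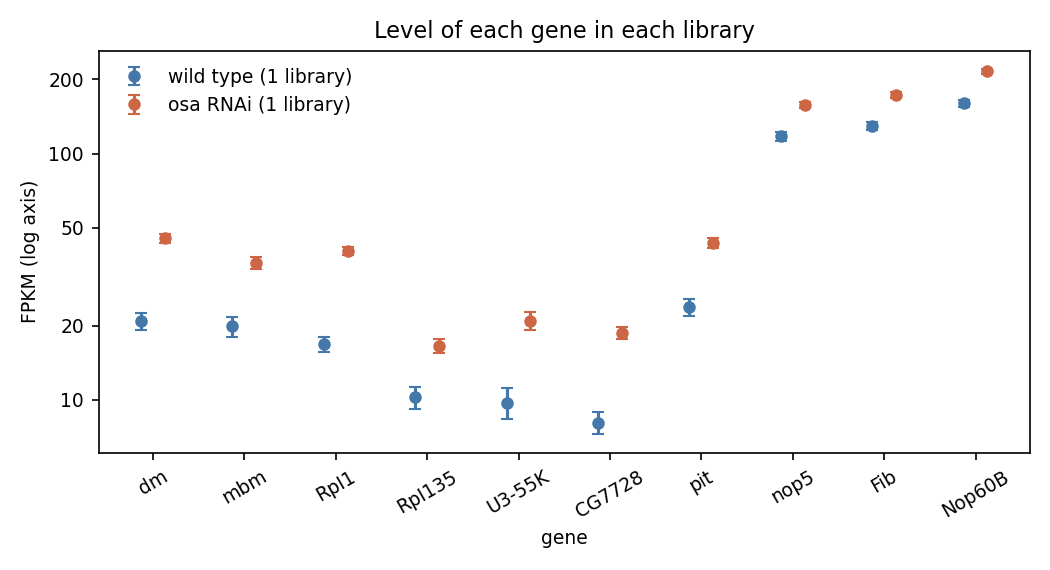
FPKM (log axis) of the 10 genes in the wild type and osa RNAi libraries, 1 library each; points are the deposited values and bars the deposited 95% intervals, which cover counting error. The osa RNAi point lies above the wild type point for each gene, and nop5, Fib and Nop60B stand above 100 FPKM in both libraries.

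The 10 genes fell into 3 snoRNP genes at high levels and 7 genes at much lower ones. In wild type Nop60B (160 FPKM), Fib (129) and nop5 (117) stood apart from one another and above all the others. Next came pit at 23.8 FPKM, dm at 20.9 and mbm at 19.9, each with an interval that overlapped that of its neighbour. RpI1 followed at 16.8 FPKM, just below the interval of mbm. RpI135 (10.2 FPKM), U3-55K (9.74) and CG7728 (8.08) were lowest, again with overlapping intervals between neighbours. In osa RNAi the order of the first 3 was the same, dm (45.3 FPKM) and pit (43.2) overlapped, as did pit and RpI1 (40.2), and RpI135 (16.6) was now the lowest, just below the interval of CG7728 (18.7). The level and the call are linked across the genome: among genes with a mean of 10 to 50 FPKM, where 7 of these genes lie, 4.29% were called 2-fold higher, and among genes of at least 100 FPKM, where the 3 snoRNP genes lie, 0.731% were. In those bands 4 of 7 and 0 of 3 of the genes described were called.

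**Figure D2:**
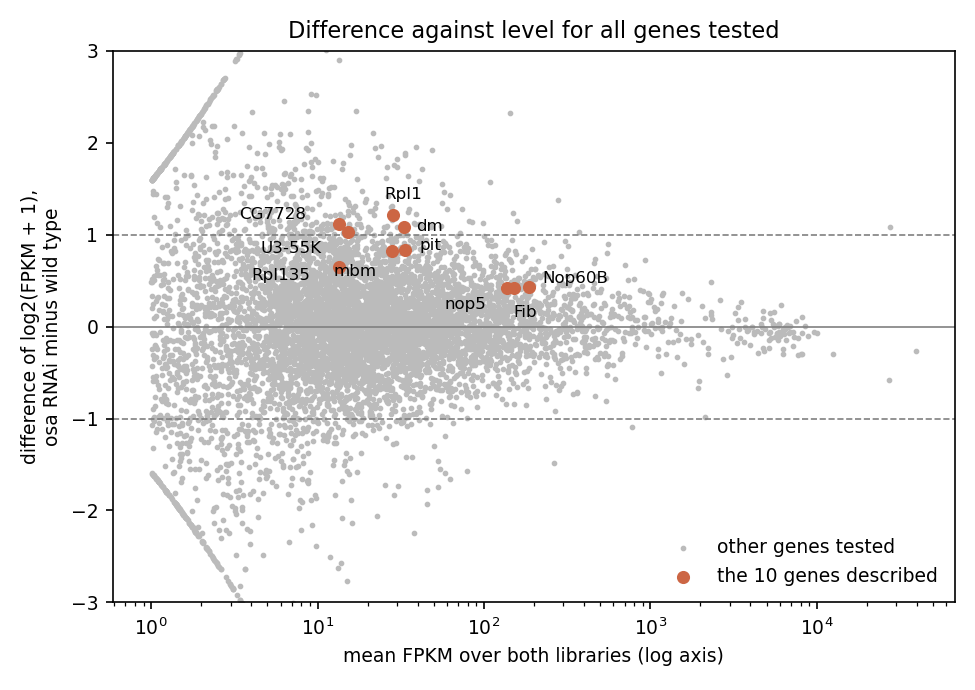
Difference of log2(FPKM + 1), osa RNAi minus wild type, against the mean FPKM over both libraries (log axis) for all 7144 genes tested, with the 10 genes described in colour and dashed lines at a difference of 1 in either direction; 52 genes beyond a difference of 3 are not drawn. The 7 genes with means of 10 to 50 FPKM lie between 0.65 and 1.21 and the 3 above 100 FPKM lie at 0.42 to 0.43.

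The growth regulator gene dm (FBgn0262656, X from 3267216 to 3280049, positions counted from 1 after 1 was added to the start in the files) measured 20.9 FPKM in the wild type library (19.2 to 22.6) and 45.3 FPKM under osa RNAi (43.4 to 47.2). That is 2.17-fold higher (1.98 to 2.37), a difference of 1.08 in log2(FPKM + 1). Behind these values stood 632 implied reads in wild type and 2331 under osa RNAi. Set against each library's reads on genes, the reads alone gave a larger fold, 2.38 (2.18 to 2.59). The dm locus overlaps no other gene in the files.

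Genes of the Myc network, meaning partners, regulators and relatives of Myc, were described as a list. None of 12 was called 2-fold higher or lower, where the shares of 7.78% and 6.79% over all genes come to about 1 gene each way in a list of this length, and their median difference was 0.05, beside 0.04 over all genes tested. Max, whose product is the DNA-binding partner of Myc, was at 79.9 FPKM in the control and 98.9 under osa RNAi, 1.24-fold higher (1.14 to 1.34). Its locus overlaps those of CG9666 (2.19 and 15.2 FPKM) and CG42374 (42.3 and 26.0 FPKM) on the other strand, which leaves the sharing of reads uncertain. Mnt, which encodes a repressor that competes for Max, was at 13.3 and 7.05 FPKM, 1.89-fold lower in osa RNAi and the lowest difference of the list at −0.83. From these values the FPKM of dm was 1.57 times that of Mnt in wild type and 6.42 times in osa RNAi. The reads implied for Mnt gave a smaller difference, with 0.689 of the wild type value, but Mnt has 9 annotated transcripts, which makes them less certain.

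Among regulators of Myc turnover, CG5794 (puf in the reference names), a ubiquitin protease that stabilises Myc, was at 10.9 FPKM in the control and 17.9 under osa RNAi. This was the highest difference of the list at 0.66. The reads implied for CG5794 gave a fold of 1.38 against 1.64 from FPKM, less certain because it has 5 annotated transcripts. The gene ago encodes an F-box protein that marks Myc for degradation and was at 18.9 and 24.9 FPKM. The genes brat, a translational repressor that limits Myc in INPs, and pUf68 (hfp), a splicing factor that represses dm, were at 83.4 and 88.4 FPKM and at 59.1 and 51.0 FPKM. Of the chromatin partners, the ATPase genes pont and rept were at 60.9 and 66.5 FPKM and at 49.1 and 58.1 FPKM. The histone demethylase gene lid was at 22.1 and 22.5 FPKM, and the acetyltransferase gene Tip60 at 14.7 and 11.3 FPKM. The pair of sugar-sensing factors, Mio and bigmax, was at 16.2 and 15.3 FPKM and at 49.9 and 47.1 FPKM, with overlapping intervals for both.

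The gene mbm (FBgn0086912, 2L from 271912 to 273710) encodes Mushroom body miniature, a nucleolar protein of neuroblasts needed for their growth and for small ribosomal subunit production. It measured 19.9 FPKM in the wild type library (17.98 to 21.8) and 36.0 FPKM under osa RNAi (33.9 to 38.1). The fold was 1.81 (1.62 to 2.02) with 439 and 1216 implied reads, and the difference of 0.83 did not pass the 2-fold rule. By reads the fold was 1.78.

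RNA polymerase I genes differed in the size and direction of their values. The gene of the largest subunit, RpI1 (FBgn0019938, 2R from 10483112 to 10488702), measured 16.8 FPKM in the wild type library (15.7 to 17.9) and 40.2 FPKM under osa RNAi (38.8 to 41.6), the largest fold of the 10 genes at 2.39 (2.22 to 2.58). The gene of the second-largest subunit, RpI135 (FBgn0003278, 2L from 404305 to 407969), with which RpI1 forms the active centre, was at 10.2 FPKM (9.18 to 11.3) and 16.6 FPKM (15.5 to 17.7), a fold of 1.62 (1.44 to 1.83). The fold intervals of the pair do not overlap. The FPKM of RpI1 was 1.64 times that of RpI135 in wild type and 2.42 times in osa RNAi.

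The smaller subunits ranged from lower to slightly higher. RpI12, the gene of a small zinc-ribbon subunit, was at 43.5 FPKM in the control and 26.3 under osa RNAi, 1.65-fold lower. Higher with intervals apart were CG3756 (Polr1C in the reference names, 61.0 and 74.2 FPKM), l(2)37Cg (Polr1D, 110 and 141 FPKM) and CG18600 (Polr1E, 36.8 and 47.5 FPKM), by 1.22- to 1.29-fold. CG13773 (Polr1F) was at 50.9 and 52.9 FPKM with overlapping intervals. Initiation factor genes also differed in direction. CG6241 (TAF1B), from the promoter-binding complex of RNA polymerase I, was at 6.62 and 14.3 FPKM, 2.16-fold higher (1.85 to 2.52). It was the only one of the 10 further genes of this list past the 2-fold rule, at 1.006, and came to less than 1 when the libraries were rescaled, either by the upper quartile or by the median ratio. Its partner genes CG10496 (TAF1C-like) and CG18316 (udd) were at 8.37 and 5.14 FPKM and at 119 and 128 FPKM. Tif-IA, the growth-regulated initiation factor gene, was at 67.7 and 69.4 FPKM with overlapping intervals, and nclb, which encodes a nucleolar WD-repeat protein that acts with RNA polymerase I, at 54.1 and 86.4 FPKM. The median difference of the 10 was 0.19, and 8 were above 0, beside 53.1% of all genes tested. The median was 0.082 over the 6 genes whose loci overlap no other.

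The same was looked at for the other RNA polymerases, though the lists do not stand for separate enzymes. Rpb5, RpII18, Rpb8, Rpb10 and Rpb12, listed under RNA polymerase II, are also subunits of RNA polymerases I and III. CG3756 and l(2)37Cg, listed under RNA polymerase I, also belong to RNA polymerase III. None of 12 core genes of RNA polymerase II was called 2-fold, again beside 7.78% higher and 6.79% lower over all genes. All but RpII215 and RpII140 had means of at least 100 FPKM, where 0.731% of genes were called higher. The median difference of the 12 was −0.004, with 6 above 0 and 6 below. Their extremes were Rpb7, at 214 FPKM in the control and 142 under osa RNAi, and Rpb5, at 268 and 337 FPKM, while Rpb12 was at 587 and 470 FPKM. The gene of the largest subunit, RpII215, was at 31.4 and 36.6 FPKM. Of 11 RNA polymerase III genes, 1 was called higher, about the share over all genes, and the median was −0.04. The called gene was CG9305 (Bdp1), of the initiation factor TFIIIB, at 11.4 and 25.1 FPKM (2.21-fold, 1.957 to 2.50). The subunit gene Sin was at 32.4 and 25.9 FPKM, lower in osa RNAi without passing the rule. The largest subunit genes of the 3 polymerases thus stood at folds of 2.39 for RpI1, 1.17 for RpII215 and 0.933 for CG17209 (Polr3A). Those of the second-largest subunits lay closer together, at 1.62 for RpI135, 1.20 for RpII140 and 1.19 for RpIII128.

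U3-55K and CG7728 belong to the machinery that cuts the rRNA precursor on the way to the small subunit. U3-55K (FBgn0053505, 2R from 10746350 to 10748250), the gene of a WD-repeat protein of the U3 snoRNP, measured 9.74 FPKM in the wild type library (8.33 to 11.1) and 20.9 FPKM under osa RNAi (19.2 to 22.6). Its fold of 2.15 (1.83 to 2.53) rests on 192 and 603 implied reads, the fewest of the 10 genes. The difference of 1.03 came to 0.996 when the libraries were rescaled by their median ratio and to 0.95 from the reads, just under the rule. CG7728 (FBgn0036686, 3L from 17009654 to 17013370) carries the synonym BMS1 in RefSeq, the name of a GTPase that works with the U3 snoRNP in yeast. It was at 8.08 FPKM (7.23 to 8.92) and 18.7 FPKM (17.7 to 19.8), a fold of 2.32 (2.07 to 2.60) and a difference of 1.12.

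Of 14 further genes of the small subunit processome and 40S assembly, 2 were called 2-fold higher and none lower, counts within about 1 gene of the shares over all genes (7.78% and 6.79%), and the median difference was 0.37. CG13097 had the highest difference of this list, 1.78, at 5.81 FPKM in the control and 22.5 under osa RNAi (3.86-fold, 3.28 to 4.55), and CG7338 (Tsr1), which acts in late 40S maturation in yeast, was at 10.5 and 28.4 FPKM (2.71-fold, 2.40 to 3.05). The RNA helicase gene kz was at 4.56 and 8.81 FPKM. The list also held genes with the opposite difference. RIOK1 (CG11660 in the files), a kinase gene of 40S maturation, was at 16.4 and 9.82 FPKM, and l(3)72Dn at 12.5 and 8.54 FPKM, both with intervals apart. RIOK2 (CG11859), a relative of RIOK1, had the higher level under osa RNAi (18.4 and 32.7 FPKM). The locus of CG7338 overlaps that of CG7324 (13.7 and 7.90 FPKM) on the other strand. The strand setting of the counting is not stated, which leaves the sharing of reads between the pair uncertain.

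The 3 snoRNP genes had nearly the same fold in FPKM. Fib (FBgn0003062, 2R from 18960420 to 18962243) encodes fibrillarin, the enzyme that methylates rRNA in box C/D snoRNPs, and measured 129 FPKM in the wild type library (124 to 135) and 173 FPKM under osa RNAi (168 to 179). Its partner in the same particle, nop5 (FBgn0026196, 2L from 6916753 to 6918741), was at 117 FPKM (113 to 122) and 157 FPKM (153 to 161). Nop60B (FBgn0259937, 2R from 20062248 to 20073866), which encodes the pseudouridine synthase of box H/ACA snoRNPs, dyskerin in vertebrates, was at 160 FPKM (155 to 165) and 216 FPKM (211 to 220). The folds were 1.34 for Fib (1.27 to 1.41), 1.34 for nop5 (1.28 to 1.402) and 1.35 for Nop60B (1.298 to 1.401), with intervals that overlapped one another. The FPKM of nop5 was 0.906 times that of Fib in wild type and 0.908 times in osa RNAi.

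The reads behind these values did not show the same evenness. For nop5 the reads gave 1.34 (1.28 to 1.41), as the FPKM did. For Fib they gave 0.997 (0.949 to 1.05), from 2570 implied reads in wild type and 3980 under osa RNAi, so the higher FPKM of Fib in osa RNAi was not seen in its reads. For Nop60B they gave 1.23 (1.19 to 1.28), less certain because its FPKM is summed over 7 annotated transcripts. The locus of nop5 lies within that of x16 on the same strand (127 and 113 FPKM), which leaves the sharing of reads between the pair uncertain.

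**Figure D3:**
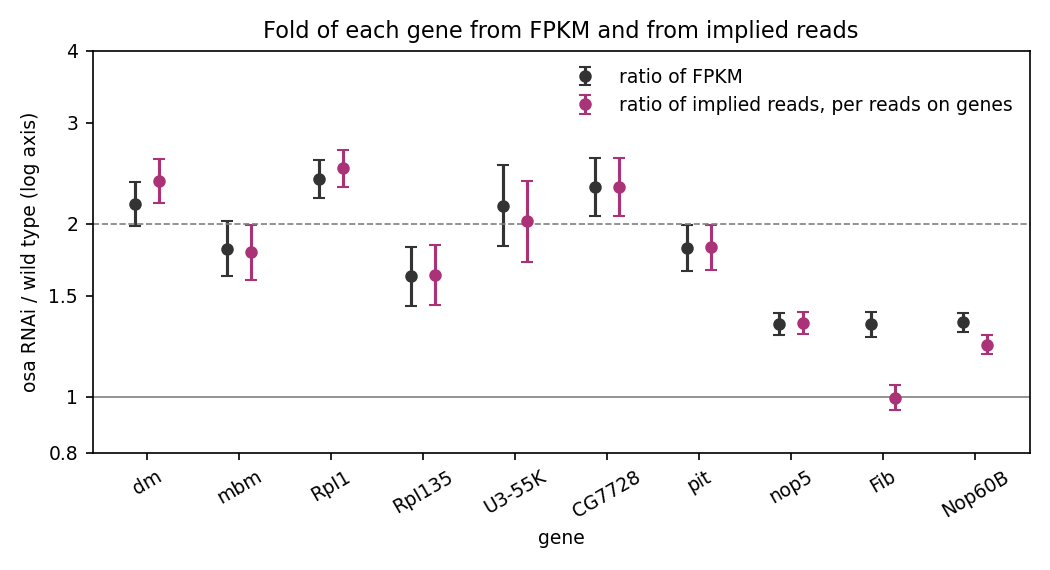
Ratio of osa RNAi to wild type (log axis) for each of the 10 genes from the deposited FPKM and from the reads implied by the deposited intervals, each library set against its reads on genes; bars are 95% intervals for counting error, and lines mark ratios of 1 and 2. The pair of points agrees within the bars for 7 of the genes, that of dm lies at 2.17 and 2.38 with bars that overlap, Nop60B at 1.35 and 1.23, and that of Fib at 1.34 and 0.997.

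The 7 further snoRNP genes had a median difference of 0.41, and none was called at either threshold. The box C/D protein genes hoip (605 and 860 FPKM) and Nop56 (157 and 222 FPKM) were 1.42-fold and 1.41-fold higher, CG4038 (Gar1), of the box H/ACA particle, was at 93.2 and 128 FPKM, and NHP2 at 434 and 576 FPKM. The remaining box H/ACA gene, CG7637 (Nop10), was at 764 and 726 FPKM with overlapping intervals. Its fold was 0.949 from FPKM but 1.14 (1.07 to 1.22) from the reads, and its locus overlaps that of CG12935.

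The gene pit (FBgn0025140, 3R from 17860020 to 17864114) encodes Pitchoune, a nucleolar DEAD-box RNA helicase (DDX18 in vertebrates) that acts downstream of Myc in flies. It measured 23.8 FPKM in the wild type library (21.9 to 25.7) and 43.2 FPKM under osa RNAi (41.1 to 45.3). The fold was 1.82 (1.66 to 1.99) from FPKM and 1.82 from the reads, and the difference of 0.84 did not pass the 2-fold rule. The intervals of this fold and those of mbm largely overlapped. The locus of BG4 (7.58 and 8.50 FPKM) lies within that of pit, so the sharing of reads between this pair is uncertain as well.

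Of 23 further genes of 60S assembly and other nucleolar proteins, 1 was called 2-fold higher and none lower, beside 7.78% and 6.79% over all genes. All had means above 10 FPKM. Among all genes tested, 4.29% at 10 to 50 FPKM and 0.731% at 100 FPKM or more were called higher. A difference above 0 was found for 20 of the 23, beside 53.1% of all genes, and their median was 0.37. The called gene was Dbp73D, a DEAD-box helicase gene, at 6.81 FPKM in the control and 17.0 under osa RNAi (2.50-fold, 2.11 to 2.96). The nucleostemin gene ns1, a GTPase of 60S export, was at 48.4 and 91.0 FPKM, and Nopp140, the gene of a nucleolar chaperone of snoRNPs, at 40.1 and 70.9 FPKM. At the other end was the helicase gene Dbp45A, at 31.0 and 25.1 FPKM.

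**Figure D4:**
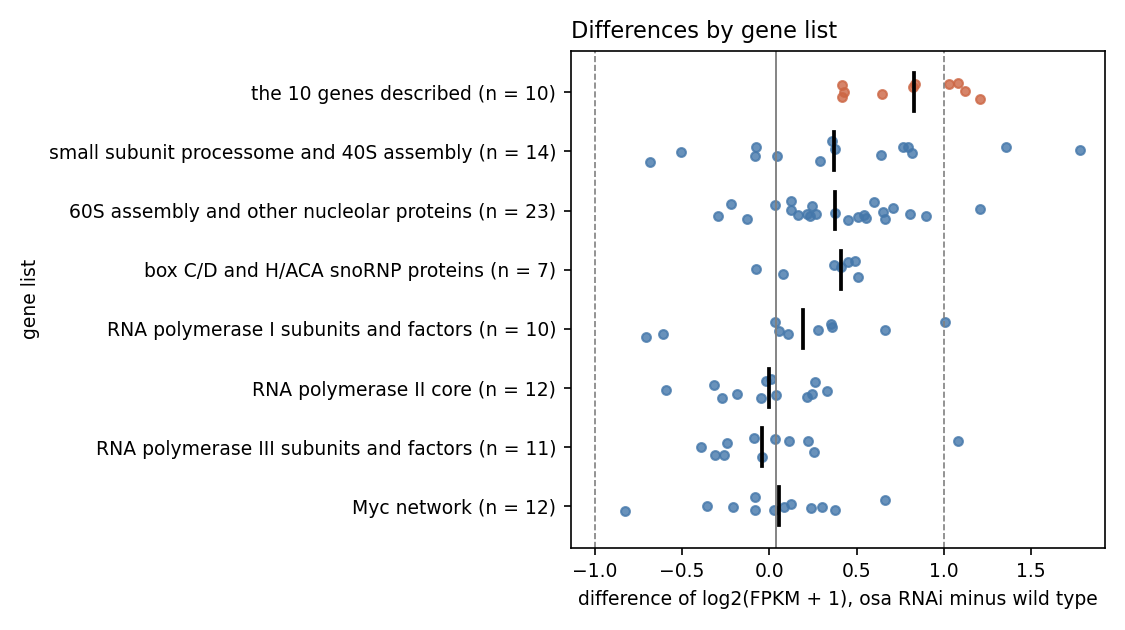
Difference of log2(FPKM + 1), osa RNAi minus wild type, for each measured gene of each list; the 10 genes described are shown once, in their own row, and left out of the other rows, black bars are medians, the grey line is the median of all genes tested (0.04) and dashed lines mark a difference of 1. The medians of the processome, 60S and snoRNP rows lie at 0.37 to 0.41, RNA polymerase I at 0.19 and RNA polymerases II and III at −0.004 and −0.04. Subunits shared between polymerases are drawn in 1 row only.

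Long transcripts had slightly higher values in osa RNAi in general. Over genes above 0 in both libraries the median difference was 0.11 for 1244 genes with transcripts of 3000 to 5000 bases and −0.002 for 2357 genes of 1000 to 2000 bases. The transcripts of dm (3484 bases), RpI135 (3564) and CG7728 (3675) fall in the former band, and those of mbm (1756), U3-55K (1690), Fib (1318) and nop5 (1813) in the latter. RpI1 (5078) lies above both, where the median was 0.09 for 541 genes of at least 5000 bases. The median was 0.01 below 1000 bases and 0.02 from 2000 to 3000 bases. The part of transcript length in the differences was not tested.

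By level in both libraries, the 3 genes nearest to dm among all genes tested were CG32625 (20.8 and 44.2 FPKM), the chromatin factor gene corto (21.6 and 43.98 FPKM) and Pdk1, which encodes a kinase of the insulin pathway (19.997 and 43.2 FPKM). Likeness was the Euclidean distance in log2(FPKM + 1) over 2 libraries, and it was 0.034, 0.061 and 0.089 for them. The authors' deposited table, which holds 15 genes at a false discovery rate of 0.01, contains none of the 10 genes and none of the other genes of these lists. Its criterion, an adjusted p-value, is unlike the 2-fold rule used here, which called 556 genes higher and 485 lower.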

How the data were processed

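The authors deposited FPKM values with bounds and a status for 14210 genes per library, per the file headers, and a table of adjusted p-values with 15 genes at a false discovery rate of 0.01, which served only to look up the genes described. Tools named in the submitters' processing notes, without roles, are Cufflinks 1.3.0, TopHat 1.4.1, BWA 0.6.1, DESeq 1.8.3 and HTSeq. The genome build is not stated there. Polyadenylated RNA was sequenced with strand-specific libraries, per the labels' protocols. Starts in the files count from 0, since 811 genes had the same end as in BDGP6 and a start lower by 1, so 1 was added; the files' coordinates were not joined to that build, which served for symbols, strands and transcript lengths.

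Implied reads n came from the bounds, FPKM ± 2 × FPKM/√n. They were whole within 0.02 for 92.8% (wild type, 846 genes) and 93.4% (osa RNAi, 1018 genes) of those with 1 transcript and fewer than 50 reads. Genes with several transcripts were not checked in this way, so their implied reads are less certain. The depth was 10114559 and 15707014 implied reads on genes. Folds are ratios of FPKM with 95% intervals from these reads, without molecular identifiers, so they cover counting error only. Differences use log2(FPKM + 1), which understates low genes. No test was run, since each genotype had 1 library.

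The 10 genes and the 7 further lists were chosen with earlier results of these data known. Lists were matched by symbol in the files or the reference names, and 4 named symbols (Polr1G, Polr3K, Imp3 and hlc) had no match. Named were the 10 genes, all genes of the Myc network and RNA polymerase I lists, from each other list the 3 largest differences and any called gene, and the 3 genes nearest to dm; others were named after their values were seen. One gene that this rule names is not reported here. No promoter or protein sequences were used here. Python 3.11.15, numpy 2.4.6, pandas 2.3.3 and matplotlib 3.10.9 were used.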

Additional observations from a re-analysis of the deposited data

How the results depend on the processing

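No paired analysis was possible because each genotype had 1 library. The settings tried were a pseudocount of 0.1 or 5, libraries rescaled by upper quartile or median ratio, other filters on FPKM, folds of 1.5 and 3, no rule on intervals, any status, no overlapping loci and, added after seeing the data, implied reads in place of FPKM. None of the 10 genes was called lower under any of them. The count called higher was 4, against 1 with a pseudocount of 5 (RpI1), 7 at 1.5-fold and 0 at 3-fold, and 3 or 4 otherwise; over all genes 7.78% were called higher, against 2.16%, 17.1% and 4% in those settings. Their median difference stayed between 0.73 and 0.86. A pseudocount of 5 moved RpI1 to 1.05 and CG7728 to 0.86. Implied reads moved dm to 1.21, Nop60B to 0.30 and Fib to −0.0038, which reversed its sign; the cause was not tested. Among the lists, implied reads turned the RNA polymerase II median to 0.068, and leaving out overlapping loci turned that of RNA polymerase III to 0.115, with 7 of its genes left. The single calls of Bdp1, Dbp73D and TAF1B were lost with a pseudocount of 5 and at 3-fold, and that of TAF1B also under both rescalings and without overlapping loci, where the RNA polymerase I median was 0.082. Depth limits U3-55K most, with 192 wild type reads.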

Other observations

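Reads per unit of FPKM were compared for 3022 genes with 1 transcript and at least 100 implied reads in each library. This quantity follows depth, 1.55 times as high in osa RNAi, but not depth alone. In osa RNAi it was 1.54 times that in wild type at the median. From the 5th to the 95th percentile it was 1.41 to 1.71 times. The part of transcript length in this spread was not tested. Fib had the lowest value of the 3022, at 1.16. For the other 7 of the 10 genes with 1 transcript, values ran from 1.46 for U3-55K to 1.70 for dm. The cause was not tested.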
